A study of Mus musculus with 24 samples.

Results

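Excision repair in mouse liver was compared between the start of the light phase, zeitgeber time 0 (ZT0, lights on), and the start of the dark phase, ZT12 (lights off). The comparison rests on 4 libraries, 2 at each time, out of 12 liver libraries and 24 libraries in the series, which also covers kidney and 6 zeitgeber times 4 h apart. The members are these 4 liver libraries by their labels. The other 8 liver libraries entered the filter on low counts, the scaling, the estimate of the spread and the values given over all times. All animals were wild-type C57BL/6J females aged 6 months, kept under 12 h of light and 12 h of dark, and both groups had received an intraperitoneal dose of 10 mg cisplatin per kg. Tissue was taken 2 h after the injection, so that ZT0 and ZT12 differ in the time of day and not in the drug, and no liver without cisplatin is part of the comparison. The assay was XR-seq, which sequences the short oligomers that repair cuts out of damaged DNA. The labels do not say whether the replicates of one time came from separate mice, so the p-values measure the spread between libraries, which may be technical.

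Nucleotide excision repair removes cisplatin adducts by cutting the damaged strand on both sides of the lesion. On the transcribed strand (TS) of an active gene, an RNA polymerase stalled at the adduct calls in the repair factors, so that TS repair follows transcription, while the non-transcribed strand (NTS) is left to slower repair that scans the whole genome. In liver many genes are transcribed with a daily rhythm set by the circadian clock, in which BMAL1 (gene Arntl) with CLOCK or NPAS2 activates genes through E-boxes, the PER and CRY proteins repress that activity, ROR and REV-ERB proteins act on RORE sites, and DBP, TEF, HLF and NFIL3 act on D-boxes.

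The promoters of the 6 genes of the clock lists that were among the 12 largest differences in either direction are shown, from 250 bases before to 50 after the start. Of these windows 4 hold a match to a letter pattern given below. Whether a match is a working clock element was not tested. Sequences are those of RefSeq for GRCm38.p6, on the strand of the gene, at chr1:39194022-39194321 (Npas2), chr7:113207215-113207514 (Arntl), chr7:45704997-45705296 (Dbp), chr3:95882179-95882478 (Ciart), chr6:145865371-145865670 (Bhlhe41) and chr4:151044616-151044915 (Per3). Capitals mark matches to the E-box CACGTG, its variant CACGTT, the D-box TTANGTAA and TNGGTCA, a loose form of the RORE core. N stands for any base, and each pattern was searched on both strands. A site that departs from its pattern stays unmarked.
Npas2: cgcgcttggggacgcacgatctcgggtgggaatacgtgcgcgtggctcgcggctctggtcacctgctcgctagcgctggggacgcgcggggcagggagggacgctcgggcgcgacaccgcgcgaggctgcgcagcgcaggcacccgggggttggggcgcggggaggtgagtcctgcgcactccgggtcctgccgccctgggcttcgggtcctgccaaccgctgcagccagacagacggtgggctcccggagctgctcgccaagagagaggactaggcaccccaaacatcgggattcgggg
Arntl: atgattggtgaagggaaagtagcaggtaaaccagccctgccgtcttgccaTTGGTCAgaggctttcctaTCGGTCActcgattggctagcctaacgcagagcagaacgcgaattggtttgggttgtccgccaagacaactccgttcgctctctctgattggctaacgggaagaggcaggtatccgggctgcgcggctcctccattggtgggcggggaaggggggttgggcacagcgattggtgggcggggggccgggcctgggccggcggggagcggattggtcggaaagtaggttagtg
Dbp: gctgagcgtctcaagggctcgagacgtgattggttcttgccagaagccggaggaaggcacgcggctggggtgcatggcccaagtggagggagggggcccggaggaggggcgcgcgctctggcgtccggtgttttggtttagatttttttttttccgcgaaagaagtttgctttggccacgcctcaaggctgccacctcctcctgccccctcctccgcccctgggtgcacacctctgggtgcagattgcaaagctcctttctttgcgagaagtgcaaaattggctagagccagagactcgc
Ciart: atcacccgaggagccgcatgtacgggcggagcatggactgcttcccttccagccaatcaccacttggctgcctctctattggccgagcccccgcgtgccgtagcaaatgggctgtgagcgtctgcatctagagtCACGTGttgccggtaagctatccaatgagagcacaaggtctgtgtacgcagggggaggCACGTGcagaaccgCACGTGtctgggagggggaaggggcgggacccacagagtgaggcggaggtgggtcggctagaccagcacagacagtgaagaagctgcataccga
Bhlhe41: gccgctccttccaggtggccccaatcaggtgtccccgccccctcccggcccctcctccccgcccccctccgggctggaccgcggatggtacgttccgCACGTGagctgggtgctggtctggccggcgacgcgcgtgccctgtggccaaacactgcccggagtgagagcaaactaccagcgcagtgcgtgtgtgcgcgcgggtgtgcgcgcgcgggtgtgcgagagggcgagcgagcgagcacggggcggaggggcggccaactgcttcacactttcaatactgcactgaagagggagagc
Per3: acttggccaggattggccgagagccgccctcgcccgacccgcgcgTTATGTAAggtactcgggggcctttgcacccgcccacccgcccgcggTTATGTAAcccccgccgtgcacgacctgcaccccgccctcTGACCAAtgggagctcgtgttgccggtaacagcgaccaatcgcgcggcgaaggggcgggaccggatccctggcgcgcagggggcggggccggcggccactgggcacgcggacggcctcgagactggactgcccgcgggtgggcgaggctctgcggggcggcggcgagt
Arntl held matches to TNGGTCA 200 and 181 bases before its start. Ciart held E-boxes 116, 58 and 44 bases before its start, and Bhlhe41 an E-box 153 bases before its own. Per3 held D-boxes 205 and 158 bases before its start, and a TNGGTCA match on the other strand 118 bases before it. The windows of Npas2 and Dbp held none of the 4 letter patterns. Of 39 genes searched (the 12 largest differences each way and the clock lists), 31 had a promoter in the table. An E-box stood in 3 of 9 promoters of genes with the largest differences towards ZT12 and in 1 of 11 of those towards ZT0. It stood in 3 of 11 promoters of the other clock genes, and in 7.15% of all 32851 promoters of the table. The match of 1810053B23Rik, towards ZT12, came from a promoter whose start lies 799 bases from that of its entry. In the same order, TNGGTCA stood in 1 of 9, 1 of 11, 2 of 11 and 11%. The D-box stood in 2 of 9, 0 of 11, 0 of 11 and 2.32%, and CACGTT in 0 of 9, 0 of 11, 3 of 11 and 4.68%.

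The 4 libraries held 9273110 to 17270213 TS reads and 1292708 to 2608308 NTS reads over 24357 gene entries with a symbol. One of them, ZT0 replicate 1, stood apart from the other 11 liver libraries. Its correlation with each of them over 15239 entries (log2 scale) was 0.963 to 0.979, with a median of 0.967, while the medians of the others lay between 0.986 and 0.990. The 2 libraries of ZT0 differed more than those of any other time, with a chi-square per degree of freedom of 24.4 against 3.23 to 5.38. The 16 hepatocyte markers (Alb, Apob, Cps1 and others) were read in all 12 libraries, with a summed TS level of 607 CPM (counts scaled to library size) in ZT0 replicate 1 and 785 to 935 in the others. The 12 endothelial markers (Pecam1, Cdh5, Stab2 and others) summed to 812 CPM in ZT0 replicate 1, 270 in ZT0 replicate 2, 385 and 337 at ZT12, and 299 to 399 at the other times. The calls below are therefore also given without ZT0 replicate 1, and beyond that the part of these markers in a difference was not tested. That repeat leaves ZT0 replicate 2 as the only library of its time, so that its spread comes from the other times alone. The same holds for a repeat without a library of ZT12, which leaves a single library there.

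TS repair differed between ZT0 and ZT12 at a small number of genes, led by genes of the circadian clock. Of 18655 entries tested, 124 passed an adjusted p of 0.05 (quasi-likelihood test of edgeR, Benjamini-Hochberg adjustment), which is 0.665% of those tested. These are 120 symbols, since 1810053B23Rik alone has 5 overlapping entries. TS reads were higher at ZT0 for 67 of them (0.359%) and at ZT12 for 57 (0.306%). At an unadjusted p under 0.05 there were 2374. More than 2-fold differences were found for 32 entries towards ZT0 and 33 towards ZT12. The median log2 difference of the called entries was 0.90 for ZT0 and -1.14 for ZT12, against 0.02 over all entries tested. The 2 libraries of one time did not overlap those of the other at any of the 124, nor at 6763 of the 18655 tested. A bulk liver sample cannot tell fewer cells of a type from less repair per cell, here and in all that follows.

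The called genes did not simply peak at the 2 times compared. Of the 67 entries higher at ZT0, 40 had their highest mean of the 6 times at ZT20 and 23 at ZT0, and their lowest at ZT8 (35) or ZT12 (32). Of the 57 higher at ZT12, 39 were highest at ZT12 and 13 at ZT8, and 36 were lowest at ZT0 and 16 at ZT4.

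The count depended on single libraries. It was 307 (1.62% of 18995) without ZT0 replicate 1 and 3792 without ZT0 replicate 2, which leaves the library that stands apart as the only one of its time. It was 25 without ZT12 replicate 1, 32 without ZT12 replicate 2, 82 without either library of ZT4, 81 and 82 without one of ZT8, 68 and 71 without one of ZT16, and 88 without either of ZT20. The 20 entries that passed with every one of the 12 libraries left out in turn were 13 higher at ZT0 (Arhgap24, Armc9, Arntl, Asap2, Dnmt3b, Gas7, Gfod1, Loxl4, Map4k4, Ndrg1, Npas2, Rnf144a and Smagp) and 7 higher at ZT12 (Ciart, Mme, Ngef, Per3, Tef and Usp2 among them). Fitted on the 4 libraries alone, 1 entry passed, Npas2.

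**Figure D1:**
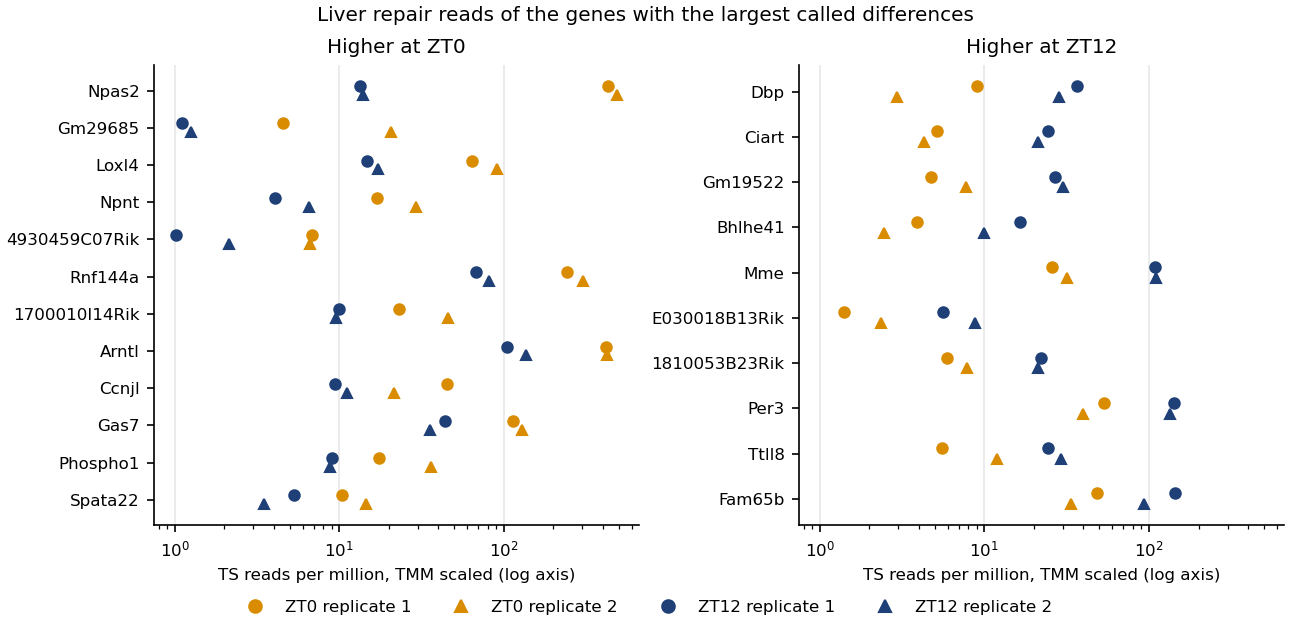
TS level (CPM) (log axis) in each of the 4 libraries for the genes with the largest called differences, 12 higher at ZT0 and 10 higher at ZT12, circles for replicate 1 and triangles for replicate 2. Npas2 lies at 427 and 484 CPM at ZT0 against 13.4 and 13.9 at ZT12. Only genes whose libraries of one time lie apart from those of the other could be chosen.

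Among the activators of the clock and genes of their phase, Npas2 and Arntl were higher at ZT0 than at ZT12. The list has 7 genes, of which 3 passed, 2 higher at ZT0 and 1 at ZT12, against 0.665% of all entries tested. Its median log2 difference was -0.01 against 0.02 over all entries tested. Npas2, which pairs with BMAL1 in place of CLOCK, spans chr1:39194272-39363240 and had the largest difference of all entries tested. Its TS level was 427 and 484 CPM at ZT0 and 13.4 and 13.9 CPM at ZT12. The log2 difference was 5.06 ± 0.18 (SE), a 33.3-fold difference (adjusted p 2.44e-07). It was 5.14 without ZT0 replicate 1.

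Arntl, which encodes BMAL1, was at 416 and 424 CPM at ZT0 and at 105 and 137 CPM at ZT12. The 2 libraries of ZT0 were nearly equal, and the log2 difference was 1.80 ± 0.20 (SE), or 3.47-fold (adjusted p 0.00257). Arntl stayed between 396 and 424 CPM at ZT16, ZT20, ZT0 and ZT4 and was at 71.4 to 137 CPM at ZT8 and ZT12, whereas Npas2 was already down to 272 and 279 CPM at ZT4 and reached 435 and 511 CPM at ZT20.

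In the same list 4 genes did not pass. Clock was at 159 and 187 CPM at ZT0 and 130 and 132 CPM at ZT12, with a log2 difference of 0.40 ± 0.09 (adjusted p 0.0906), and without ZT0 replicate 1 it was 0.51 with an adjusted p of 0.00905. Nfil3, a repressor at D-boxes, had a log2 difference of -0.49 ± 0.10 (adjusted p 0.0587). Cry1, a late repressor of BMAL1, was at 110 and 130 CPM at ZT0 and 112 and 131 CPM at ZT12, so that its times overlapped. Rora had a log2 difference of -0.25 ± 0.09 (adjusted p 0.264).

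Among the repressors and output genes of the clock, 8 of 14 passed as higher at ZT12, against 0.306% of all entries tested. None passed as higher at ZT0, against 0.359%. The median log2 difference was -0.76 against 0.02 over all entries, and 1 of the 14 had a value above 0. Dbp, an activator at D-boxes and a direct E-box target, was at 9.08 and 2.97 CPM at ZT0 and 36.8 and 28.3 CPM at ZT12. Its log2 difference was -2.52 ± 0.36 (5.72-fold, adjusted p 0.0104), and -3.44 without ZT0 replicate 1. Dbp overlaps Sphk2 on the opposite strand, so that reads in the shared stretch count for both, and it did not pass without ZT12 replicate 1 (adjusted p 0.109).

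Ciart, which encodes the repressor CHRONO, was at 5.19 and 4.33 CPM at ZT0 and 24.5 and 21.1 CPM at ZT12 (log2 -2.27 ± 0.26, 4.82-fold, adjusted p 0.00279). Bhlhe41, which encodes the E-box repressor DEC2, was at 3.89 and 2.47 CPM at ZT0 and 16.4 and 9.94 CPM at ZT12 (log2 -2.08 ± 0.31, adjusted p 0.0142). Both were also high at ZT8, at 22.4 and 24 CPM for Ciart and 16.3 and 14 CPM for Bhlhe41. Bhlhe41 did not pass without ZT12 replicate 1 (adjusted p 0.119).

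Of the period genes, Per3 and Per2 passed and Per1 did not. Per3 was at 53.6 and 39.9 CPM at ZT0 and 142 and 134 CPM at ZT12 (log2 -1.58 ± 0.14, 2.98-fold, adjusted p 0.000429). Per2 was at 156 and 124 CPM at ZT0 and 290 and 264 CPM at ZT12 (log2 -0.99 ± 0.17, 1.98-fold, adjusted p 0.034), and it did not pass without ZT12 replicate 1 (adjusted p 0.293) or replicate 2 (0.116). Per1 was at 101 and 97.9 CPM at ZT0 and 112 and 94.7 CPM at ZT12, so that its times overlapped, and its log2 difference was -0.06 ± 0.11. Over the 6 times the 12 libraries of Per1 ranged from 85.2 to 126 CPM, while those of Per2 ranged from 98.2 to 296 CPM.

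Tef and Hlf, which encode activators at D-boxes like Dbp, were both higher at ZT12 by smaller amounts. Tef was at 54.5 and 45.2 CPM at ZT0 and 115 and 113 CPM at ZT12 (log2 -1.20 ± 0.09, adjusted p 0.000189). Hlf was at 144 and 159 CPM at ZT0 and 221 and 198 CPM at ZT12 (log2 -0.46 ± 0.09, adjusted p 0.0474), and it did not pass without ZT0 replicate 1 (adjusted p 0.0712), ZT12 replicate 1 (0.419) or ZT12 replicate 2 (0.108). Usp2, a deubiquitinase under clock control, was at 66.0 and 52.5 CPM at ZT0 and 125 and 123 CPM at ZT12 (log2 -1.07 ± 0.12, adjusted p 0.00261).

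The 6 members of this list that did not pass were Per1, Cry2, Nr1d1, Nr1d2, Bhlhe40 and Wee1. Nr1d1 and Nr1d2 encode the REV-ERB repressors of Arntl. Nr1d1 was at 38.1 and 53.6 CPM at ZT0 and 62.6 and 45.1 CPM at ZT12, and Nr1d2 was at 54.8 and 79.7 against 76.0 and 77.2 CPM, so that the times overlapped for both. Both were lowest at ZT20, at 24.3 and 26.4 CPM for Nr1d1 and 41.4 and 46.0 CPM for Nr1d2, and both had means above ZT0 at ZT4 and ZT8. For both, the highest mean of the 6 times was at ZT8. Wee1, which encodes a cell-cycle kinase, was at 27.9 and 47.7 CPM at ZT0 and 52.8 and 57.2 CPM at ZT12 (log2 -0.53 ± 0.19, adjusted p 0.296).

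**Figure D2:**
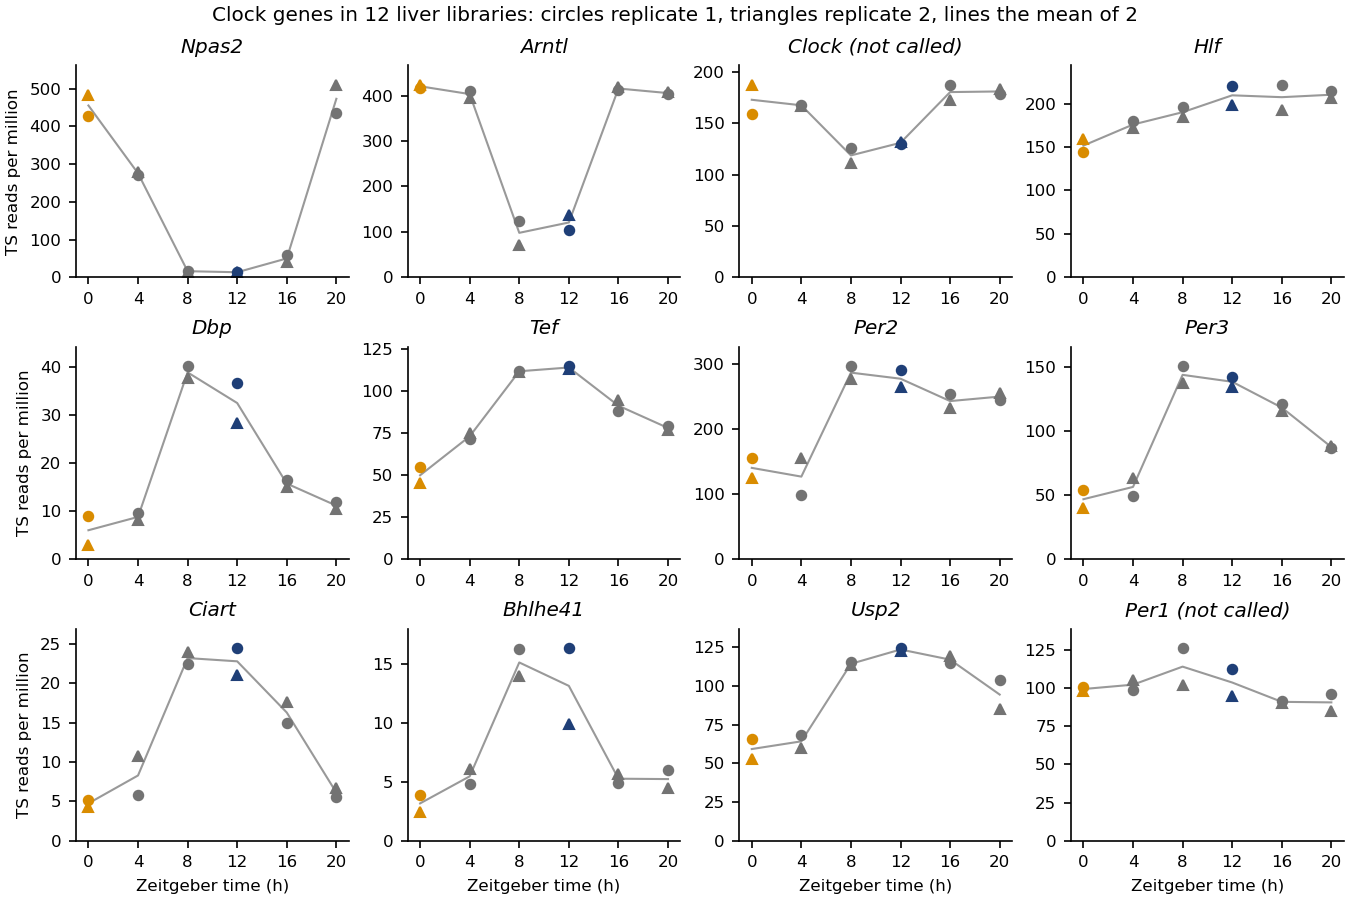
TS level (CPM) of 12 clock genes in the 12 liver libraries by zeitgeber time, circles for replicate 1, triangles for replicate 2 and lines for the mean of 2 libraries, with ZT0 in orange and ZT12 in blue. Npas2 and Arntl are low at ZT8 and ZT12, Dbp, Ciart and Bhlhe41 are high at ZT8 and ZT12, and Clock and Per1 did not pass between ZT0 and ZT12.

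Outside the clock lists, the largest differences towards ZT0 were in Gm29685, Loxl4, Npnt, 4930459C07Rik, Rnf144a, 1700010I14Rik, Ccnjl, Gas7, Phospho1 and Spata22. Loxl4, which encodes a lysyl oxidase that cross-links collagen, was at 63.8 and 91.2 CPM at ZT0 and 14.7 and 17.2 CPM at ZT12 (log2 2.28 ± 0.19, 4.84-fold, adjusted p 0.000323). Npnt, which encodes the matrix protein nephronectin, was at 16.9 and 29.3 CPM at ZT0 and 4.10 and 6.55 CPM at ZT12 (log2 2.10 ± 0.31, adjusted p 0.0142), and it did not pass without ZT12 replicate 1 (adjusted p 0.193) or replicate 2 (0.0629). Separate times were a condition for choosing the genes of largest difference, so they add no support there. In both genes ZT0 replicate 1 was the lower of its time.

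Rnf144a, which encodes an E3 ubiquitin ligase, was at 242 and 304 CPM at ZT0 and 68.1 and 80.8 CPM at ZT12 (log2 1.87 ± 0.12, 3.66-fold, adjusted p 7.56e-05). Gas7, which encodes an actin-binding protein, was at 114 and 129 CPM at ZT0 and 44.0 and 35.6 CPM at ZT12 (log2 1.62 ± 0.14, adjusted p 0.000323). Both were about as high at ZT20 as at ZT0, at 267 and 246 CPM for Rnf144a and 118 and 133 CPM for Gas7.

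The other 6 of these genes had fewer reads or a wide gap between the 2 libraries of ZT0. Gm29685 was at 4.54 and 20.5 CPM at ZT0 and 1.12 and 1.26 CPM at ZT12 (log2 3.42 ± 0.59, adjusted p 0.0315). Ccnjl was at 45.1 and 21.4 CPM at ZT0 and 9.40 and 11.2 CPM at ZT12, and its log2 difference of 1.67 was 1.04 without ZT0 replicate 1. Phospho1, which encodes a phosphatase of bone mineralisation, was at 17.4 and 36.2 CPM at ZT0 and 9.03 and 8.74 CPM at ZT12, and 1700010I14Rik at 23 and 45.9 against 9.96 and 9.60 CPM. The log2 differences of 4930459C07Rik and Spata22 were 2.02 ± 0.29 and 1.54 ± 0.26. None of the 6 passed without ZT12 replicate 1, with adjusted p from 0.0948 (4930459C07Rik) to 0.327 (Ccnjl).

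Towards ZT12, the largest differences outside the clock lists included those of Gm19522, Mme, E030018B13Rik, 1810053B23Rik, Ttll8 and Fam65b. Mme, which encodes the peptidase neprilysin, was at 25.7 and 31.9 CPM at ZT0 and 109 and 110 CPM at ZT12 (log2 -1.92 ± 0.22, 3.78-fold, adjusted p 0.00261). The 2 libraries of ZT12 were the highest of all 12 liver libraries for Mme.

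Fam65b, which encodes an inhibitor of RhoA, was at 48.4 and 33.4 CPM at ZT0 and 144 and 93.1 CPM at ZT12 (log2 -1.54 ± 0.27, adjusted p 0.0326). Ttll8, which encodes a tubulin glycylase, was at 5.51 and 11.9 CPM at ZT0 and 24.2 and 29.3 CPM at ZT12 (log2 -1.58 ± 0.29). Neither passed without ZT12 replicate 1, which left a single library of ZT12, at log2 differences of -1.20 and -1.71.

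Gm19522, which overlaps Zbtb20 on the opposite strand, was at 4.75 and 7.79 CPM at ZT0 and 26.9 and 29.9 CPM at ZT12 (log2 -2.14 ± 0.35). E030018B13Rik, which overlaps Klf13 on the opposite strand, had a log2 difference of -1.90 ± 0.30 at 1.40 to 8.79 CPM in the 4 libraries. The longest entry of 1810053B23Rik was at 5.94 and 7.85 CPM at ZT0 and 22 and 21.3 CPM at ZT12 (log2 -1.63 ± 0.23). Gm19522 and 1810053B23Rik did not pass without ZT12 replicate 1 (adjusted p 0.148 and 0.102), nor E030018B13Rik without ZT12 replicate 2 (0.153).

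The genes that passed with every library left out in turn are described further, a choice made after their values were seen. Asap2, which encodes a GTPase-activating protein for Arf, was at 421 and 455 CPM at ZT0 and at 157 CPM in both libraries of ZT12 (log2 1.48, adjusted p 0.000189). Smagp was at 88.4 and 87.0 CPM at ZT0 and 32.6 and 34.4 CPM at ZT12 (log2 1.39), and Ndrg1, a gene induced by hypoxia and stress, at 115 and 110 against 45.8 and 47.1 CPM (log2 1.27). In these 3 genes the libraries of one time lay close together, ZT0 replicate 1 included.

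Arhgap24, which encodes a GTPase-activating protein for Rac, was at 246 and 208 CPM at ZT0 and 100 and 97.3 CPM at ZT12 (log2 1.20). Dnmt3b, the de novo DNA methyltransferase, was at 82.0 and 73.8 CPM at ZT0 and 36.3 and 39.9 CPM at ZT12 (log2 1.03). Map4k4 and Gfod1 had log2 differences of 1.12 each and Armc9 of 0.90, and Ngef, higher at ZT12, of -0.85.

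No member of 16 other gene lists passed among the 12 libraries, at 0.665% of all entries. This count depended on ZT0 replicate 2. Without it, ZT0 replicate 1 stood alone for its time and far more entries passed over all genes. Members of the cholesterol, fatty acid synthesis, fatty acid oxidation, bile acid and xenobiotic lists then passed as higher at ZT12. Excision repair genes passed there in both directions. These calls are not read as a result about the lists, since far more of all entries passed as well. The nucleotide excision repair genes themselves (29 of 30 tested) had a median log2 difference of -0.01, with 13 of 29 above 0, and the targets of p53 (24 tested) a median of -0.04, with 11 above 0. Immediate early genes, heat shock genes, chaperones of the endoplasmic reticulum and ribosome biogenesis genes had medians of -0.06, -0.05, -0.07 and -0.03. The median over all 18655 entries was 0.02, with 9840 above 0.

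The metabolic lists had lower medians. Of 21 cholesterol synthesis genes 1 had a value above 0, with a median of -0.33, and of 20 genes of bile acid synthesis and transport 1, with a median of -0.26. Of 21 genes of fatty acid and triglyceride synthesis none had a value above 0, with a median of -0.27. The medians were -0.23 for gluconeogenesis, -0.20 for fatty acid oxidation, -0.17 for glucocorticoid targets, -0.14 for xenobiotic metabolism and for growth hormone targets, -0.13 for platinum transport and thiol defence and -0.12 for glycolysis.

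Hepatocyte markers were low in ZT0 replicate 1, and their median was -0.30 with that library and -0.12 without it. Without it the medians were -0.19 for cholesterol synthesis, -0.09 for bile acids, -0.12 for fatty acid synthesis, -0.05 for fatty acid oxidation and -0.01 for xenobiotic metabolism. They were -0.18 for gluconeogenesis, -0.17 for glucocorticoid targets, -0.05 for growth hormone targets, -0.09 for platinum transport and thiol defence and -0.07 for glycolysis, so that the value for glucocorticoid targets hardly differed with and without it. Cholesterol synthesis genes summed to 1226 and 1448 CPM at ZT0 and 1702 and 1574 CPM at ZT12, and their highest sum was at ZT8, at 1749 and 1578 CPM. Without ZT0 replicate 1, at 1.62% of all entries, 4 members of these 16 lists passed, namely Polk (higher at ZT0) and Lpin1, Pfkfb3 and Abcc4 (higher at ZT12).

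Leaving out ZT0 replicate 1 kept 116 of the 124 called entries, all in the same direction, and added 191. The 307 entries called without it were 188 higher at ZT0 (0.99%) and 119 higher at ZT12 (0.626%). The 8 that no longer passed were Eml6, Hlf, Tsc2, Itga6, Plcb1, Chd1l, Fhad1 and Exog, with adjusted p of 0.0505 to 0.0716. Of the 191 added, 125 were higher at ZT0 and 66 at ZT12, and 30 of those 66 had a value above 0 with all 12 libraries. Among the added genes with the largest differences, Tmem171 was at 2.81 and 8.10 CPM at ZT0 and 1.30 and 1.78 CPM at ZT12, and Rfx4 at 184 and 388 against 139 and 99.7 CPM. Slc22a7, which encodes an organic anion transporter, was at 3.24 and 1.55 CPM at ZT0 and 8.47 and 6.04 CPM at ZT12.

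The endothelial markers turned with that library. All 12 had a value above 0 with the 12 libraries, at a median of 0.57 and with none passing, and the median was -0.46 without ZT0 replicate 1, when Kdr (-0.89) and Eng (-0.66) passed as higher at ZT12. Kdr, the receptor of vascular endothelial growth factor, was at 25.8 and 7.36 CPM at ZT0 and 14.9 and 12.5 CPM at ZT12. The markers of Kupffer and other immune cells summed to 84.9 CPM in ZT0 replicate 1 and to 44.0 to 67.5 CPM in the other 11 libraries, and stellate markers to 144 CPM against 98.3 to 150 CPM.

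**Figure D3:**
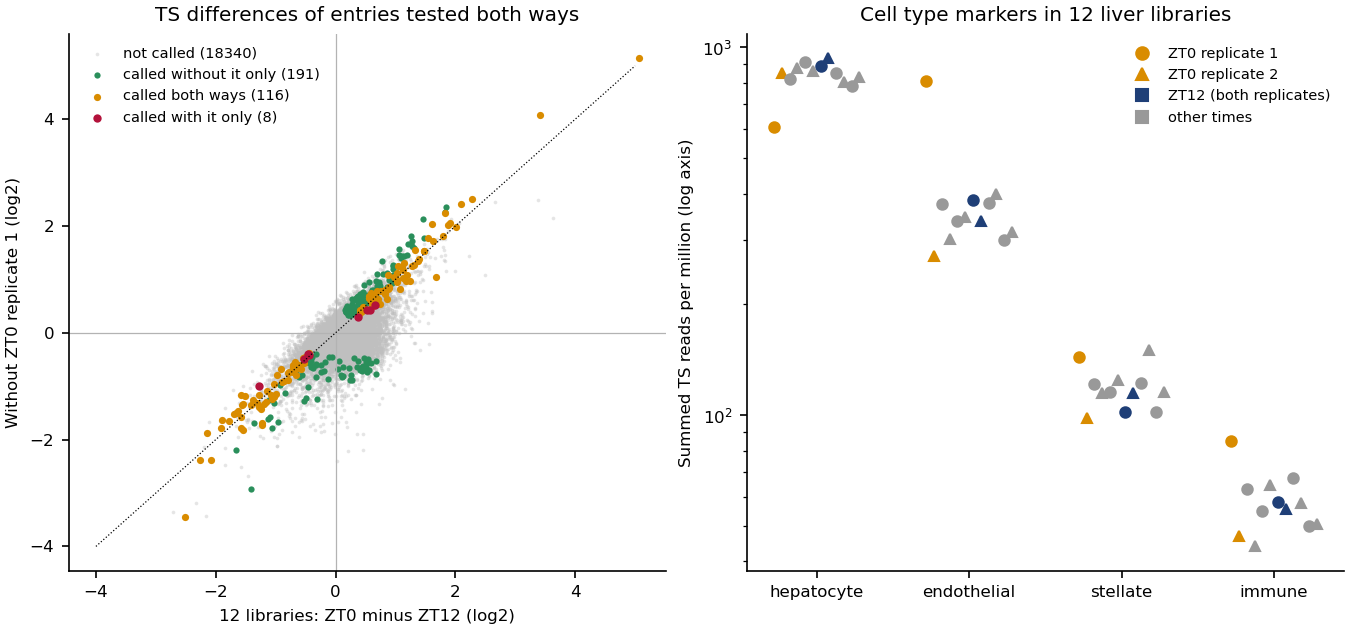
Left, log2 TS difference of each of 18655 entries from all 12 liver libraries (x) and without ZT0 replicate 1 (y), coloured by where it was called, with the dotted line marking equal values. Right, summed TS level (CPM) (log axis) of 4 marker lists in the 12 libraries, with ZT0 replicate 1 (orange circle) below the others for hepatocyte markers and above them for endothelial and immune markers.

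On the non-transcribed strand, which held fewer reads, a largely different set of entries passed. Of the 124 entries called on the TS, 106 had the same sign on the NTS, and the share over all entries was not counted. Of 18061 entries tested, 115 passed (0.637%), 33 higher at ZT0 (0.183%) and 82 higher at ZT12 (0.454%), by the same edgeR test and adjustment. Of these, 13 passed on both strands, which is 10.5% of the 124 and 11.3% of the 115, and the direction was the same in all 13. They include Npas2 (NTS log2 1.16), Dbp (-1.07), Per3 (-1.27) and Mme (-0.84). Without ZT0 replicate 1 the NTS count was 154, with 76 higher at ZT0 and 78 at ZT12 and 85 of the 115 shared, so that the lean towards ZT12 was not seen without that library. The count was 1082 without ZT0 replicate 2, and 60 and 61 without one library of ZT12.

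Some of the largest NTS differences lay opposite or beside a gene whose TS differed. Where 2 genes on opposite strands overlap, a read in the shared stretch counts on the TS of one and the NTS of the other. Of the 115 NTS entries, 21 (18.3%) overlapped or lay within 10 kb of an opposite-strand entry called on the TS, all 21 with the same direction, 14 of them overlapping it, against 48 of 17946 (0.267%) among entries not called on the NTS. Hectd2 had NTS levels of 153 and 250 CPM at ZT0 and 23.5 and 26.2 CPM at ZT12 (log2 3.02 ± 0.26) and overlaps 1500017E21Rik, whose TS log2 difference was 1.47. Its own TS was at 65.3 and 98.7 against 78.4 and 90.2 CPM, so that the times overlapped on that strand. Likewise 4930549C15Rik (NTS log2 2.02) overlaps Rnf144a, 2700060E02Rik (1.87) overlaps Nid2, and Gm11346 (-2.54) overlaps Fam65b.

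Other NTS differences lay beside such a gene without overlapping it. Btbd10 lies 1518 bases from Arntl on the opposite strand, and its NTS was at 106 and 128 CPM at ZT0 and 20.9 and 19.4 CPM at ZT12 (log2 2.56 ± 0.21). Uts2, which encodes the peptide urotensin 2, lies 1845 bases from Per3, and its NTS was at 24.5 and 22.5 CPM at ZT0 and 161 and 135 CPM at ZT12 (log2 -2.65 ± 0.19). In both, the libraries of one time lay far from those of the other. The TS of Uts2 had too few reads to be tested.

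The largest NTS difference had no such neighbour. Slc13a1, which encodes a sulfate transporter, had NTS levels of 18.5 and 10.8 CPM at ZT0 and 200 and 181 CPM at ZT12 (log2 -3.77 ± 0.39), while its TS lay between 1.48 and 2.16 CPM in the 4 libraries. The entry labelled Ren2, a renin gene symbol that was not checked here, had a log2 NTS difference of -2.46 ± 0.29. Its NTS levels were 11.1 and 26.9 CPM at ZT0 and 120 and 106 CPM at ZT12. On the same strand beside it, the entries Kiss1 (NTS log2 -1.63) and Golt1a with Kiss1 (-1.53) also passed as higher at ZT12. Wee1 passed on the NTS (log2 -1.39) and not on the TS, and the NTS of Nr1d1 (log2 0.88) lies opposite Thra, whose TS was higher at ZT0 (log2 0.86).

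**Figure D4:**
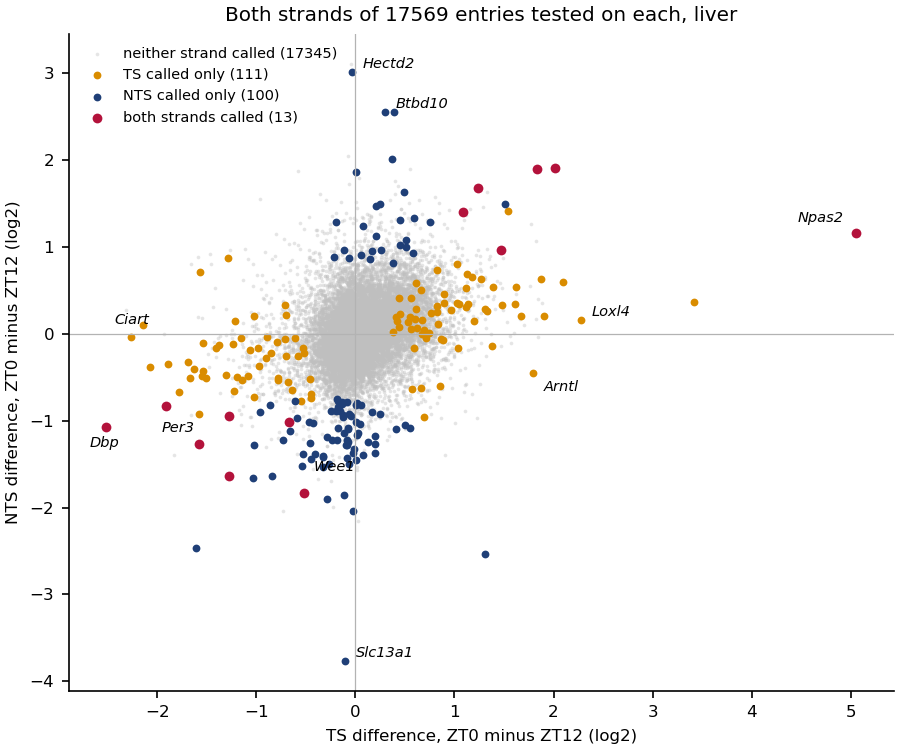
Log2 difference of ZT0 minus ZT12 on the TS (x) and the NTS (y) for the 17569 entries tested on both strands, coloured by the strand on which an entry was called. Most called entries passed on a single strand, with 111 called on the TS alone, 100 on the NTS alone and 13 on both.

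The ratio of TS to NTS within a library differed for 73 of 19256 entries (0.379%), 47 with a higher ratio at ZT0 (0.244%) and 26 at ZT12 (0.135%) (edgeR's quasi-likelihood test, strand by time). In Npas2 the TS held 23.7 and 25.7 times the NTS reads at ZT0 and 1.76 and 1.56 times at ZT12 (log2 change of the ratio 3.91 ± 0.23). In Arntl the ratio was 15.1 and 12.1 at ZT0 and 2.60 and 2.96 at ZT12 (2.27 ± 0.25). In Ciart it was 0.55 and 0.34 at ZT0 and 2.01 and 1.91 at ZT12 (-2.23 ± 0.28), so that fewer reads fell on the TS than on the NTS at lights on, and more at lights off. Ciart overlaps C920021L13Rik on the opposite strand, and its NTS was at 64.5 and 89.2 against 88.1 and 73.0 CPM.

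Of the 73 entries, 29 were also called on the TS, which is 39.7% of the 73 and 23.4% of the 124. Slc13a1 (3.66 ± 0.43), Uts2 (3.39 ± 0.73), Hectd2 (-3.03 ± 0.28) and Btbd10 (-2.25 ± 0.24), called on the NTS and not on the TS, also passed on the ratio. In Per3 and Clock the ratio did not pass, with log2 values of -0.30 ± 0.31 and -0.01 ± 0.20. Restricted to entries that overlap no other, 38 passed. Without ZT0 replicate 1 the ratio count was 77, with 39 higher at ZT0 and 38 at ZT12 and 47 of the 73 shared, so that the lean towards ZT0 was not seen without that library. The count was 397 without ZT0 replicate 2, 31 without ZT12 replicate 1 and 22 without ZT12 replicate 2.

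The same contrast in kidney, from 4 libraries of its own, gave fewer calls. There 11 of 19702 entries passed (0.0558%), 2 higher at ZT0 (0.0102%) and 9 higher at ZT12 (0.0457%), and 8 of them (72.7%) were among the 124 of liver (6.45%), with Npas2, Arntl, Ciart, Dbp, Per3, Tef and Lingo4 among them. Of the 124 liver entries 108 had the same sign in kidney, 61 of 67 higher at ZT0 and 47 of 57 higher at ZT12. The share with the same sign over all entries tested was not counted. The labels do not say whether liver and kidney came from the same mice.

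The difference between the tissues was itself tested, and 20 of 19702 entries passed (0.102%), 13 with a higher value in liver (0.066%) and 7 with a lower one (0.0355%). Npas2 differed between ZT0 and ZT12 in both tissues and by more in liver, with kidney levels of 267 and 234 CPM at ZT0 and 34.7 and 32.2 CPM at ZT12 (kidney log2 2.90, liver minus kidney 2.17 ± 0.21, adjusted p 9.60e-05). Loxl4 (liver minus kidney 1.59), Npnt (1.82), Rnf144a (1.58) and Gas7 (1.48) were higher at ZT0 in liver and did not pass in kidney, where their log2 differences were 0.69, 0.28, 0.31 and 0.15. Npnt was at 133 and 130 CPM at ZT0 and 117 and 98.6 CPM at ZT12 in kidney, where its 4 libraries lay above those of liver. Mme (-1.65), Ttc39a (-1.41) and Ccdc57 (-1.38) were higher at ZT12 in liver and did not pass in kidney, where their log2 differences were -0.25, 0.01 and 0.25.

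Most other clock genes did not pass this test, which does not show that the tissues are equal. The liver minus kidney value was 0.05 for Arntl (adjusted p 0.984), -0.12 for Ciart (0.963), -0.52 for Per3 (0.517) and -0.78 for Dbp (0.763), and for 1 more clock gene, Nfil3, it passed (-0.72, adjusted p 0.0244), with log2 differences of -0.49 in liver and 0.24 in kidney that did not pass in either alone. Without liver ZT0 replicate 1 the count was 49, with 24 above 0 and 25 below and 19 of the 20 shared. The count was 1482 without liver ZT0 replicate 2, and 10 without liver ZT12 replicate 1 or without kidney ZT12 replicate 1.

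The TS difference also varied with gene length. The median log2 difference was -0.05 for the 833 entries under 2 kb and 0.25 for the 963 entries over 200 kb, and was -0.15 and -0.02 without ZT0 replicate 1. The median over entries longer than 100 kb minus that over entries under 10 kb was 0.22, and 0.11 without that library. Within single libraries, as a deviation from the mean of 12, the same value was 0.24 in ZT0 replicate 1, 0.02 in ZT0 replicate 2, and -0.09 and -0.06 at ZT12. With the length trend of each library removed, 113 entries passed, of which 105 were among the 124.

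**Figure D5:**
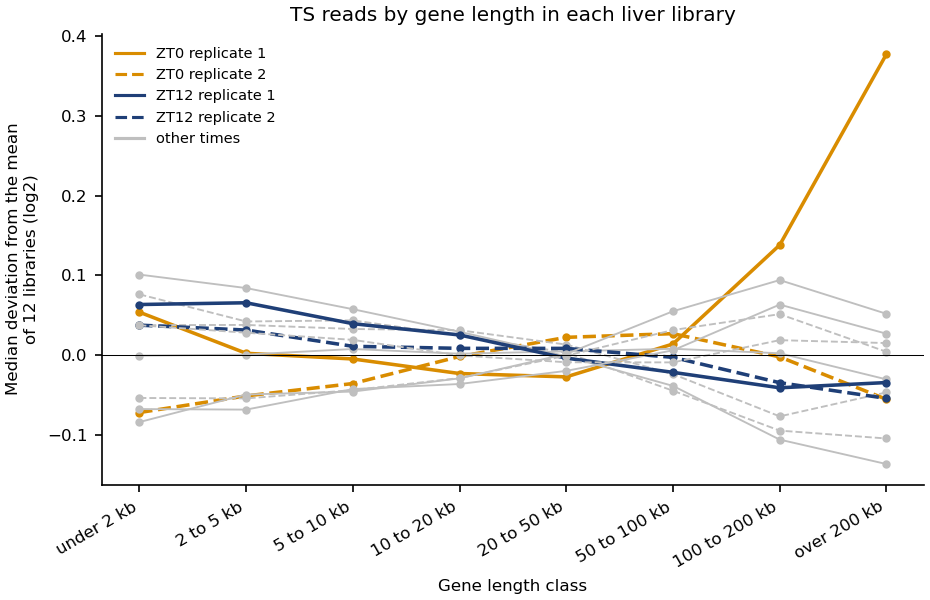
Median deviation of TS reads from the mean of the 12 liver libraries (log2) by gene length class, 1 line per library, with ZT0 in orange and ZT12 in blue (solid replicate 1, dashed replicate 2) and other times in grey. ZT0 replicate 1 rises to 0.38 in entries over 200 kb, while ZT0 replicate 2 is at -0.06 there.

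The TS took 87.5% ± 0.339 (SD, n = 2) of genic reads at ZT0 and 87.2% ± 0.477 (SD, n = 2) at ZT12. The difference of 0.309 percentage points had an exact 2-sided permutation p of 0.667, and 2 libraries against 2 cannot give a p under 0.333. The share was higher in replicate 1 than in replicate 2 at all 6 liver times and all 6 kidney times. In a split chosen after seeing the data, within replicate 1 it was 87.8% at ZT0 and 87.6% at ZT12, a difference of 0.211 points, and within replicate 2 it was 87.3% and 86.9%, a difference of 0.406 points.

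At the threshold of the TS test, the last genes called were Eml6 (log2 0.53, adjusted p 0.0496) and Plcb1 (-0.53, adjusted p 0.0494). The first not called were Fbxl19 (0.69, adjusted p 0.0511) and Sag (-1.01, adjusted p 0.0526). Sag, at 17.9 and 23.2 CPM at ZT0 and 45.4 and 38.0 CPM at ZT12, had a larger difference than either called gene, with a larger spread.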

How the data were processed

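XR-seq read counts were taken as deposited. Per the file headers, the authors' tables give for each gene, strand and zeitgeber time reads as a count, beside an RPKM value, and the deposited RPKM was used only to recover library totals. The genome was mm10, per the submitters' processing notes. Neither aligner nor counter is given in the sources used here. The extraction protocol in the labels names antibodies against lesions other than cisplatin adducts, while the treatment and design texts name cisplatin. Of 25239 entries, 882 without a symbol (2.74% to 2.79% of TS reads) were left out. Coordinates are 1-based from the authors' tables, and a symbol with several entries is described by its longest.

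Counts were tested with edgeR 4.0.16 (R 4.3.3, limma 3.58.1), with TMM scaling, filterByExpr, 1 mean per time over 12 liver libraries (24 for the tissue difference), glmQLFit and glmQLFTest, and Benjamini-Hochberg adjustment at 0.05. The kidney contrast came from the same fit of 24 libraries as the tissue difference. CPM are TMM-scaled, log2 differences are ZT0 minus ZT12, and errors on log2 values are SE. The tests were tested on simulated data. Alternatives included DESeq2 1.42.0. Named genes are the 12 largest called differences each way (mean of at least 50 reads), both clock lists, and the 4 largest each way on the other comparisons. Some genes that this rule selects are not reported here. Members and lists were chosen with earlier results of these data known. Depth sets the precision, and counts cover reads without molecular identifiers.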

Additional observations from a re-analysis of the deposited data

Results flagged for a closer look

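In 20 entries the ZT0 minus ZT12 log2 difference on the TS differed between liver and kidney by the test of that difference (quasi-likelihood test of edgeR, Benjamini-Hochberg adjustment, 0.102% of 19702 entries). In 13 the liver minus kidney value was above 0, among them Npas2 (2.17), Npnt (1.82), Loxl4 (1.59), Rnf144a (1.58), Gas7 (1.48), Smagp (1.36), Asap2 (1.30), Ndrg1 (1.29), Arhgap24 (1.23), Map4k4 (1.05), Gfod1 (0.85) and Dnmt3b (0.68). In 7 it was below 0, among them Mme (-1.65), Ttc39a (-1.41), Ccdc57 (-1.38), Cpn1 (-0.74), Nfil3 (-0.72) and Col18a1 (-0.71). In kidney alone, Npas2 was the 1 gene of these 20 that passed. Without liver ZT0 replicate 1 the count was 49, with 24 above 0 and 25 below.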

How the results depend on the processing

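On the TS, 124 calls became 329 with DESeq2, 1 on the 4 libraries alone, 325 with the length trend removed and 485 with a replicate block, both without ZT0 replicate 1 (chosen after seeing the data), and 25 to 3792 with 1 library left out. No low-count filter (168), RLE size factors (123), library totals alone (136) and a replicate block (174) stayed within 1.5 times. On the NTS, 115 became 175 with a replicate block, 293 with no filter, 107 with DESeq2 and 60 to 1082 with 1 library left out. For the ratio, 73 became 164 with a replicate block, 127 with no filter, 38 without overlapping entries and 22 to 397 with 1 library left out. For the tissue difference, 20 became 43 with DESeq2 (21 above 0 and 22 below), 27 with a replicate block and 10 to 1482 with 1 library left out. The replicate numbers were not taken to pair the samples, since the correlation of replicate differences over 15 pairs of liver times ran from -0.19 to 0.37 and was over 0.1 in 8, at 0.07 for ZT0 and ZT12. The cause of these changes was not tested, beyond fewer libraries in the fit. The long minus short gene value was 0.108 to 0.331 without 1 library of ZT0, and the TS share difference -0.0286 to 0.646 without 1 of the 4. Of 33 named genes called on the TS, none reversed, 30 passed without ZT0 replicate 1, and 13 and 17 without ZT12 replicate 1 and 2. Signs turned in 10 named genes not called (lowest adjusted p of such a value 0.277). With 1 library left out, the log2 value ranged from -0.161 to 0.101 for Cry1, -0.184 to 0.063 for Per1, -0.493 to 0.031 for Nr1d1, -0.494 to 0.058 for Nr1d2, -0.044 to 0.077 for Bhlhe40, -0.384 to 0.223 for Hectd2, -0.049 to 1.18 for 4930549C15Rik, -0.113 to 0.107 for 2700060E02Rik, -0.357 to 0.172 for Slc13a1 and -0.184 to 2.42 for Gm11346. Without ZT0 replicate 1 and with the length trend removed, Cry1 was 0.077, Nr1d1 0.065, Nr1d2 0.041, Hectd2 0.197 and Gm11346 -0.130, and with a replicate block 0.047, 0.048, 0.037, 0.236 and -0.224. No setting varied depth, and its effect was not tested.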
